A study of Homo sapiens with 4 samples.

Results

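The cadherins and protocadherins, the adhesion proteins built from repeated extracellular cadherin domains, were examined in U87MG cells with and without silencing of the histone demethylase KDM2B. Members were the genes whose symbol marks them as a classical or related cadherin (CDH with a number), a protocadherin (PCDH), a FAT, Dachsous (DCHS) or CELSR giant cadherin or a cadherin-related gene (CDHR), with the antisense symbol CELSR3-AS1 left out. They made up 98 of the 22578 genes in the table, of which 54 belong to the protocadherin clusters and 44 do not. U87MG is an established human glioblastoma line, so all values describe 1 line. Its cells were transduced on day 1 with retrovirus carrying a hairpin against firefly luciferase (shControl, 2 libraries) or against KDM2B (shKDM2B, 2 libraries), placed under 1 µg/ml puromycin from day 3 and collected on day 9, so both groups carried virus and drug selection. The cells were seeded at passage 5 and the labels give passage 8. Which KDM2B hairpin entered each library is not given by any source used. The study calls the libraries of a group biological replicates, and the labels do not say at which step they were separated, so all p-values measure only how far these libraries spread.

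Classical cadherins hold neighboring cells together through calcium-dependent binding, and their cytoplasmic tails connect to actin through catenins. Clustered protocadherins lie in tandem alpha, beta and gamma arrays on chromosome 5 and give neurons a surface identity, since each cell uses only some of the variable exons and the resulting proteins bind copies of themselves. In the alpha and gamma arrays each variable exon has its own promoter and is spliced to constant exons at the far end of the array, whereas each beta gene is a single exon with its own promoter. Many of these promoters hold a short conserved sequence that includes CGCT and lies within a binding site of the insulator protein CTCF. FAT, Dachsous and CELSR proteins are very large cadherins known for planar cell polarity and, in the case of FAT and Dachsous, growth control.

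The promoters of the clustered members are shown first because they are what the arrays share beyond their symbols. RefSeq windows (GRCh38.p14) of 250 bases before and 50 after the start were at hand for 70 members, 44 of them clustered, with the first listed window used where a gene had several. The stretches below run 5′ to 3′ on the gene strand of chromosome 5, and the capitals mark CGCT with the 5 letters before it.
PCDHA10 (chr5:140855832-140855891): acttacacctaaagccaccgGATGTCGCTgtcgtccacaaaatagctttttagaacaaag
PCDHA12 (chr5:140875235-140875294): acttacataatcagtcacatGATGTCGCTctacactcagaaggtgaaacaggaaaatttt
PCDHB7 (chr5:141172557-141172616): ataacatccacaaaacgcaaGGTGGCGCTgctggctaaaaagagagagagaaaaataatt
PCDHB14 (chr5:141223254-141223313): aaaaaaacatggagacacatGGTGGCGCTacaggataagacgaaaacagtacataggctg
PCDHB9 (chr5:141187065-141187124): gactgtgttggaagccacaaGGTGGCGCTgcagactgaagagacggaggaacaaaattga
PCDHGA10 (chr5:141412922-141412981): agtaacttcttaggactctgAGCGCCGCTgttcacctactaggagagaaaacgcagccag
PCDHGA9 (chr5:141402705-141402764): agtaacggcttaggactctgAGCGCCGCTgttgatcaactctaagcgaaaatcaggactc
PCDHGA5 (chr5:141364098-141364157): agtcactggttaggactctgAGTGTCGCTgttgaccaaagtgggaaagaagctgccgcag
On either strand, GGTGGCGCT was found in 12 of 12 beta windows and in 0.524% of the windows of all 27305 genes in the RefSeq table. GATGTCGCT was found in 9 of 13 alpha windows and in 0.103% of all windows. GCGCCGCTG, which overlaps the capitals of PCDHGA9 and PCDHGA10 by all but the first letter, was found in 9 of 19 gamma windows and in 1.25% of all windows. None of the 26 windows of other members held the alpha or the beta letters, and 1 held the gamma letters. The 4 letters CGCT alone were common, with 69.4% of all windows holding them on either strand. On the gene strand, with the first letter 30 to 100 bases before the start, CGCT was found in 40 of 44 clustered windows, 8 of 26 windows of other members and 21.7% of all windows. The 4 clustered members without it at that distance were PCDHA9, PCDHB5, PCDHB8 and PCDHGB2. Clustered windows held few CpG dinucleotides, with a median of 7 against 11.5 for other members and 14 over all genes. These matches describe letters and are not evidence of binding.

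The counts of all genes summed to 30470803 to 33770421 a library, sums in which a read can be counted for more than 1 gene and which are therefore not numbers of sequenced reads. KDM2B, the targeted gene, had 1257 and 1253 reads in the shControl libraries and 520 and 465 in the shKDM2B libraries (log2 fold change -1.60 ± 0.06 SE, edgeR adjusted p = 3.3e-19). Of the glial markers in the table, GFAP had 77 and 68 reads in shControl and 168 and 172 in shKDM2B. SLC1A3 had 877 and 877 against 1271 and 1238, and OLIG2 had 24 and 29 against 35 and 28. The mesenchymal markers VIM, CD44 and FN1 were among the high genes, with 54188 to 162660 reads in shControl. RBFOX3, a marker of mature neurons, had 11 to 15 reads in every library.

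All 98 members had a mean of at least 10 reads in 1 group or the other and were tested. A member was called if its fold change reached 1.5 and its adjusted p was 0.05 or less in edgeR's quasi-likelihood test over all 21783 genes (Benjamini-Hochberg). With silencing of KDM2B, 60 members rose, 2 fell and 36 were not called. Over all genes tested, 13.3% were called higher and 6.79% lower. By adjusted p alone, 73 members were higher and 4 lower, where 57.9% of all genes passed, 28.4% higher and 29.5% lower. The CPM ranges of the groups did not overlap in 78 members that were higher and 8 that were lower, where 39.4% and 38.2% of all genes were so placed. Among clustered members 47 of 54 rose and 0 fell, with a median log2 fold change of 0.83. Among the other members 13 of 44 rose and 2 fell, with a median of 0.25. The median over all genes was 0.01. The mean level of 11 members reached the minimum only in shKDM2B, and 5 of these were called higher (CDH3, CDH15, PCDH20, PCDHA14 and PCDHB19P). They entered the test only through shKDM2B, so these 5 rises are weak evidence. Scaling the libraries to ribosomal protein genes moved the median of all genes to 0.36, the clustered median to 1.18 and the other members' median to 0.59, and with it 93.0% of all calls were higher, against 66.1% with the scaling used here. No called member changed direction under it.

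**Figure D1:**
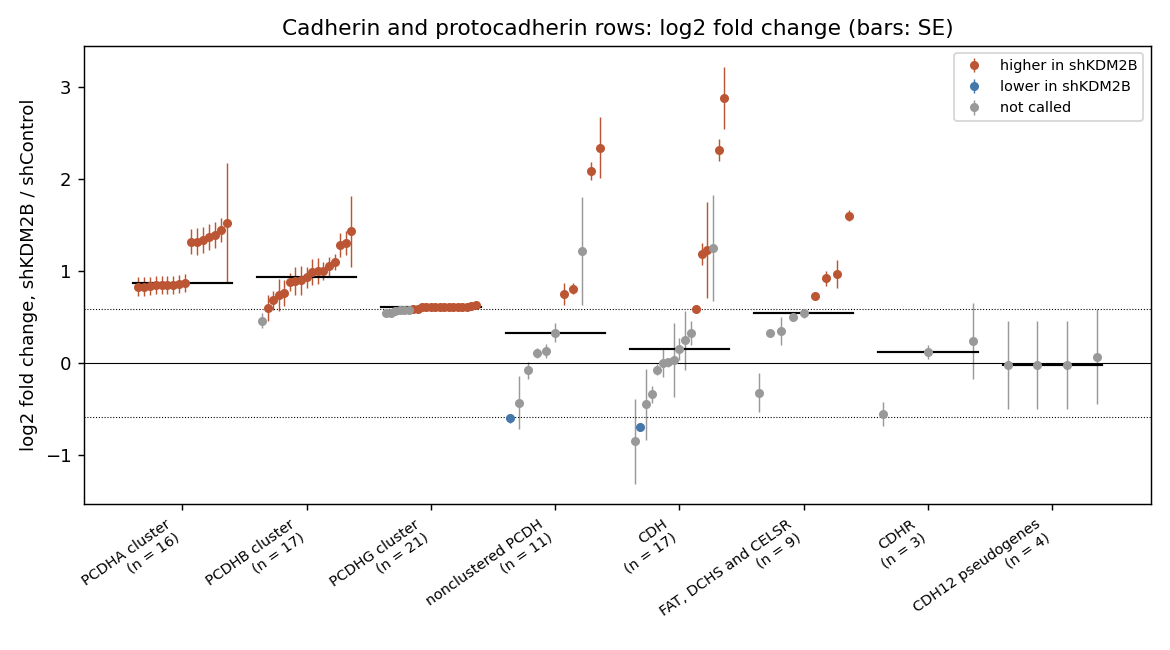
Log2 fold change of shKDM2B over shControl for all 98 members by gene group, 1 point a member with its SE. Black bars are group medians and dotted lines mark a fold of 1.5. The alpha, beta and gamma points all lie above 0, with medians of 0.87, 0.93 and 0.61.

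The rows of the alpha and gamma arrays do not measure separate genes. Going from PCDHA1 to PCDHAC2, whose annotated spans all end at the same constant exons, the count fell or stayed equal at 14 of 14 steps in all 4 libraries. From PCDHGA1 to PCDHGC5 it did so at 19 of 20 steps, the exception being PCDHGA11 to PCDHGA12. Elsewhere in the genome, genes lying inside another gene of the same strand with no shared exon had no more reads than the outer gene in 489 of 497 pairs (98.4%), and on the opposite strand in 923 of 994 pairs (92.9%). Among pairs with a better-covered inner gene, the shares were 95.1% (117 of 123) and 88.2% (328 of 372). Counting reads over the whole span of a gene, without regard to strand and for each gene they fall in, would give such nesting. That counting is inferred from the values, and the exceptions do not follow it. The study's methods say that reads were counted per transcript on Ensembl annotations with the R package GenomicFeatures, and do not say how introns, strand or overlapping genes were handled. The 16 alpha and 15 gamma calls therefore rest largely on 2 sets of reads, and the count of clustered members called cannot be read as 54 separate measurements.

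**Figure D2:**
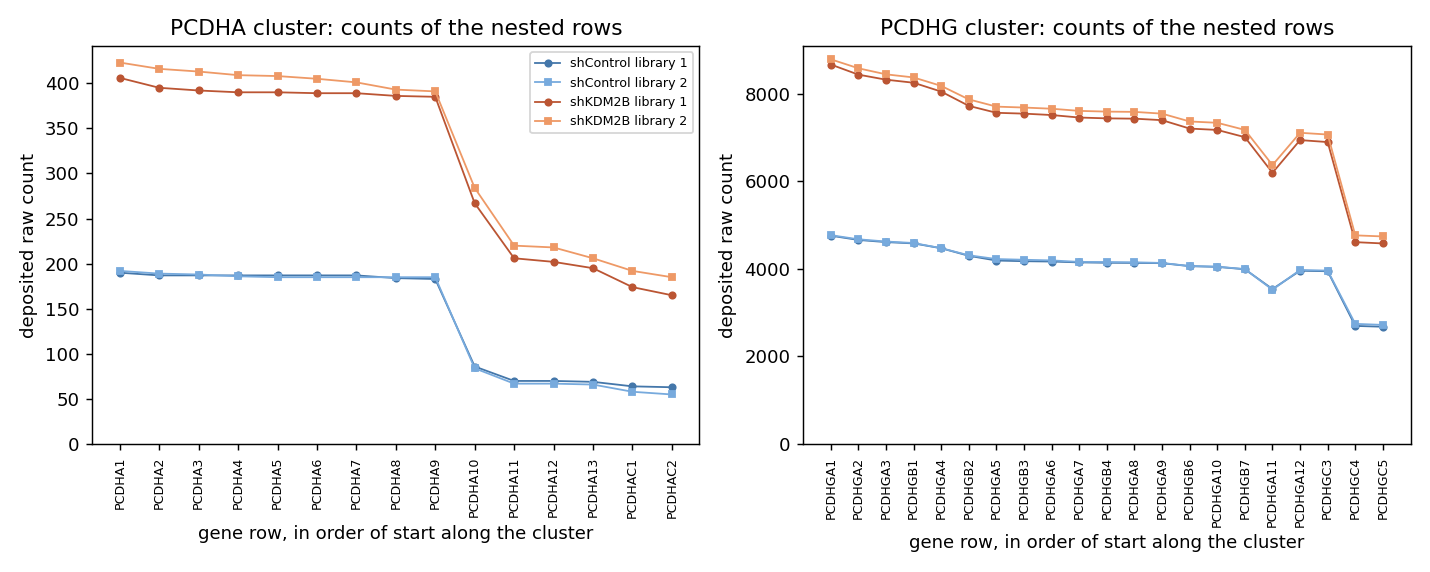
Deposited raw counts of the nested alpha rows (left) and gamma rows (right) in order of start along chromosome 5, 1 line a library. Counts fall or stay equal from the first row to the last, except for a dip at PCDHGA11 with a rise to PCDHGA12. There is a sharp step after PCDHA9 and another after PCDHGC3. The shKDM2B lines lie above the shControl lines throughout.

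The PCDHA1 row covers the whole alpha array (GRCh37, chr5:140165721-140391932). It had 190 and 192 reads in shControl and 406 and 423 in shKDM2B. The groups did not overlap, and the row rose 1.83-fold (log2 fold change 0.87 ± 0.10 SE, edgeR adjusted p = 1.2e-08). Rows PCDHA1 to PCDHA9 were nearly copies of each other, with 183 to 192 reads in shControl, 385 to 423 in shKDM2B and folds of 1.78 to 1.83. Rows PCDHA10 to PCDHAC2 had 55 to 86 reads in shControl and 165 to 284 in shKDM2B, with folds of 2.50 to 2.73. PCDHA14, a short row inside the PCDHA10 span, had 4 and 2 reads against 8 and 13, and its call was lost with DESeq2 (adjusted p = 0.24) or without shControl library 2 (adjusted p = 0.21). The antisense gene AC005609.1 across that stretch had 2 and 3 reads against 9 and 13, so the 2 rows cannot be told apart.

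Subtracting each nested row from the one before it gave the reads between one start and the next, each read counted once. This rests on the inferred way of counting. Of 15 alpha stretches 4 had enough reads to test. The stretch from PCDHA9 to PCDHA10 had 97 and 101 reads in shControl and 118 and 107 in shKDM2B. After scaling for depth its groups overlapped, at 3.23 and 3.47 CPM (counts per 1000000 reads, scaled between libraries) in shControl and 3.34 and 3.07 CPM in shKDM2B (log2 fold change -0.06 ± 0.14 SE, edgeR adjusted p = 0.72). This stretch held 51.1% and 52.6% of the alpha reads in shControl and 29.1% and 25.3% in shKDM2B. The stretch from PCDHA10 had 16 and 17 reads against 61 and 64, without overlap (log2 fold change 1.67 ± 0.24 SE, edgeR adjusted p = 1.2e-06). The stretch from PCDHAC2 to the end, which holds the constant exons of the alpha array, had 63 and 55 reads against 165 and 185 (log2 fold change 1.32 ± 0.15 SE, edgeR adjusted p = 1.2e-08). It had fewer reads in shControl than the PCDHA9 stretch, so it cannot be read as the total of the array. The 1 other tested stretch, from PCDHA13, had 5 and 8 reads against 21 and 14 (log2 fold change 1.17). Its mean reached the minimum for testing only in shKDM2B. It was thus tested only because it was higher there, and its rise is weak evidence. The stretches upstream of PCDHA9 had too few reads to test, so the position of the 3 that rose shows no pattern along the array.

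PCDHA9 is the clustered member with a matched window in which CGCT was absent from both strands. Its nearest match to the alpha letters differed by G7A, counted from 1 at the first letter of GATGTCGCT, and is shown in capitals.
PCDHA9 (chr5:140848278-140848337): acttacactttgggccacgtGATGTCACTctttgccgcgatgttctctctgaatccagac
GATGTCACT was found in 0.366% of all windows on either strand. Whether these letters bear on the level of PCDHA9 was not tested. Of the other clustered members without CGCT at the usual distance, PCDHB5 rose 1.85-fold and PCDHB8 2.00-fold. The PCDHGB2 stretch was not called (log2 fold change 0.49).

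The beta array (PCDHB2 to PCDHB15, GRCh37, chr5:140474191-140628933) consists of genes that do not nest in each other. Some of them share exonic bases with other annotated genes, at 100% for PCDHB17P and PCDHB18P, 91.6% for PCDHB19P and 43.8% for PCDHB2. The counts of these rows may therefore not be separate from those of other genes. Of its 17 rows 16 rose, by 1.51-fold to 2.69-fold, and PCDHB9 was not called. In the fit without genes that share most of their exonic bases, 14 beta rows were tested and 13 rose. Over all genes 13.3% rose. PCDHB7 had 78 and 101 reads in shControl and 257 and 266 in shKDM2B. Its groups were far apart (log2 fold change 1.30 ± 0.13 SE, edgeR adjusted p = 2.9e-09). PCDHB14 had 193 and 201 reads against 507 and 493, again without overlap (log2 fold change 1.10 ± 0.09 SE, edgeR adjusted p = 5.4e-11). PCDHB10 had 175 and 159 reads against 385 and 436, and PCDHB8 had 163 and 158 against 381 and 382, a rise of 2.07-fold and 2.00-fold. PCDHB13 had 202 and 221 reads against 447 and 475 and rose 1.84-fold. PCDHB9 had the most reads of the array in shControl, 335 and 320, and 550 and 523 in shKDM2B. Its groups did not overlap either, but its fold of 1.38 was below the threshold (log2 fold change 0.46 ± 0.08 SE, edgeR adjusted p = 1.3e-05). PCDHB7, PCDHB9 and PCDHB14 all held the same 9 capital letters printed above.

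The remaining beta rows moved the same way. PCDHB17P, a pseudogene, had 86 and 105 reads in shControl and 276 and 277 in shKDM2B and rose 2.44-fold. PCDHB6 had 137 and 130 reads against 301 and 304, and PCDHB2 had 224 and 192 against 384 and 405. In none of them did the groups overlap. PCDHB11 (70 and 78 against 184 and 168), PCDHB12 (77 and 78 against 197 and 170), PCDHB5 (59 and 69 against 143 and 139) and PCDHB4 (73 and 68 against 137 and 147) rose 1.70-fold to 2.00-fold. PCDHB18P, a pseudogene, had 51 and 53 reads against 122 and 108 and rose 1.86-fold. PCDHB3 (42 and 59 against 102 and 99) and PCDHB15 (75 and 76 against 128 and 143) rose 1.67-fold and 1.51-fold. The weakest evidence was that for PCDHB19P, a pseudogene with 6 and 12 reads against 36 and 22. The calls of PCDHB3, PCDHB15 and PCDHB19P were lost without shControl library 1 (13 beta rows called), that of PCDHB15 also without shKDM2B library 2 and that of PCDHB19P also without shKDM2B library 1. An unnamed antisense transcript across PCDHB3 to PCDHB7 had 11 and 13 reads against 27 and 23, and its part in those rows was not tested.

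The PCDHGA1 row covers the whole gamma array (GRCh37, chr5:140710081-140892542). It had 4756 and 4768 reads in shControl and 8663 and 8782 in shKDM2B. The groups did not overlap, and the row rose 1.54-fold (log2 fold change 0.63 ± 0.03 SE, edgeR adjusted p = 5.2e-16). All 21 gamma rows had log2 fold changes between 0.54 and 0.63, and 15 passed the 1.5-fold threshold, which lies inside that narrow range. The 6 not called were PCDHGA11, PCDHGA12, PCDHGB7, PCDHGC3, PCDHGC4 and PCDHGC5. Leaving out shKDM2B library 2 left 8 gamma calls, leaving out shControl library 1 left 13, and leaving out either other library gave 19, while every gamma row had an adjusted p of at most 0.05 in each case and stayed between 0.50 and 0.66.

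The stretches between gamma starts differed more than the rows. Of 20 stretches 19 were tested and 14 rose, against 13.2% of all features in that fit, with a median log2 fold change of 0.89. Those starting at the A-type variable exons PCDHGA9 and PCDHGA10 had 68 and 70 reads in shControl against 192 and 179 in shKDM2B, and 55 and 55 against 165 and 162. Their groups did not overlap, with log2 fold changes of 1.18 ± 0.14 SE and 1.32 ± 0.15 SE (edgeR adjusted p = 3.2e-08 and 1.0e-08). At the 5′ end, the PCDHGA1 stretch had 97 and 94 reads against 231 and 205 (log2 fold change 0.94), and that of PCDHGA2 had 49 and 51 against 115 and 138 (1.09). The PCDHGA4 stretch had 173 and 162 reads against 326 and 308 (0.67). Beside these, PCDHGA3, PCDHGA6, PCDHGA7, PCDHGA8, PCDHGA12, PCDHGB3, PCDHGB6 and PCDHGB7 also rose, with log2 fold changes of 0.72 to 1.56 on 3 to 34 reads a library in shControl. The PCDHGA7 stretch had 9 and 3 reads in shControl and 19 and 17 in shKDM2B. Like the PCDHA13 stretch, it reached the minimum for testing only in shKDM2B, so its rise is weak evidence. The PCDHGA8 stretch also holds PCDHGB5, which was not analysed here, and the PCDHGB7 stretch also holds PCDHGA11.

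Gamma stretches without a call were found at both ends of the level range. The PCDHGA5 stretch had 15 and 16 reads in shControl and 19 and 21 in shKDM2B (log2 fold change 0.12 ± 0.34 SE, edgeR adjusted p = 0.79), and its promoter held CGCT at the usual distance. The PCDHGC4 stretch had 19 and 24 reads against 30 and 25 (0.11 ± 0.29 SE, edgeR adjusted p = 0.78). PCDHGB1 had 110 and 118 reads against 202 and 193 (0.54), and PCDHGB2 had 108 and 86 against 158 and 165 (0.49); both had an adjusted p of at most 0.05 with a fold below 1.5.

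Most gamma reads lay in a pair of stretches. The PCDHGC3 stretch, with the C-type variable exon known to be used widely across cells, had 1248 and 1215 reads in shControl and 2284 and 2301 in shKDM2B, without overlap (log2 fold change 0.65 ± 0.04 SE, edgeR adjusted p = 7.0e-14). The stretch from PCDHGC5 to the end, with the constant exons, had 2678 and 2720 reads against 4579 and 4739 (0.54 ± 0.04 SE, edgeR adjusted p = 6.2e-13) and fell short of the fold threshold. PCDHGC3 held 25.5% to 26.4% of the gamma reads in the 4 libraries, so its share differed little between the groups. Differences between stretches were not tested.

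**Figure D3:**
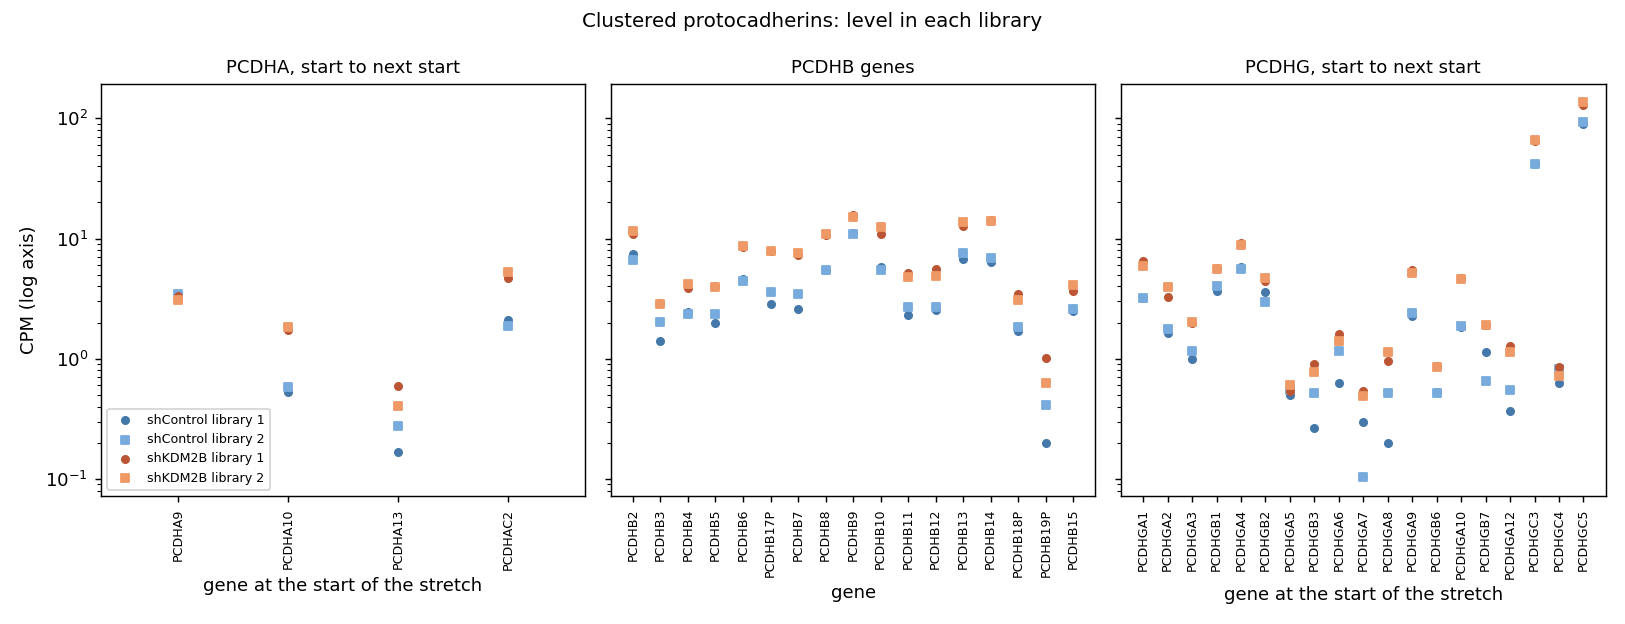
Level in CPM on a log axis in each library for the tested alpha stretches, the 17 beta rows and the tested gamma stretches. The points of the 2 groups separate in nearly all columns, and lie together for PCDHA9, PCDHGA5 and PCDHGC4.

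With each read of the alpha and gamma spans counted once, clustered protocadherins took up 20.6% and 21.3% of the reads of all members in shControl and 27.7% and 28.1% in shKDM2B. Their summed level was 233 and 242 CPM in shControl and 385 and 394 CPM in shKDM2B, a ratio of 1.64. By array the ratio was 1.83 for alpha, 1.86 for beta and 1.54 for gamma. The summed level of the other members had a ratio of 1.13, from 896 and 892 CPM to 1003 and 1010 CPM. CDH13, which was called lower, held 289 and 293 CPM of that sum in shControl and 177 and 180 CPM in shKDM2B. The ratio of 1.13 and the shares above therefore depend in part on this 1 gene. More cells using a gene and more RNA per cell cannot be told apart in bulk RNA.

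Outside the arrays the protocadherins moved in both directions. Of 11 members, 4 rose and 1 fell, beside 13.3% and 6.79% of all genes. PCDH10, a delta protocadherin of the developing brain, had 134 and 112 reads in shControl and 634 and 613 in shKDM2B. Its groups were far apart, and it rose 4.27-fold (log2 fold change 2.09 ± 0.10 SE, edgeR adjusted p = 1.8e-16). PCDH20 had 9 and 8 reads against 63 and 40, a rise of 5.05-fold (edgeR adjusted p = 7.5e-07). It reached the minimum for testing only in shKDM2B and was tested only because it was higher there. Its place among the 4 that rose is therefore weak evidence. PCDH17 had 468 and 484 reads against 990 and 991 (log2 fold change 0.81 ± 0.06 SE, edgeR adjusted p = 6.0e-12), and PCDH18 had 175 and 136 against 288 and 332 (0.75 ± 0.12 SE, edgeR adjusted p = 4.2e-06). In both the groups did not overlap. PCDH9, the most abundant of these by reads, had 1245 and 1153 reads against 975 and 905 and fell 1.51-fold (log2 fold change -0.60 ± 0.05 SE, edgeR adjusted p = 2.0e-11). Its groups did not overlap, but the call was lost without shControl library 1 or shKDM2B library 2 (-0.56 in each) and with ribosomal scaling (-0.25).

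The other 6 were not called. PCDH15, a cadherin of hair cell tip links, had 204 and 203 reads against 298 and 308 (log2 fold change 0.33). PCDH7 had 791 and 768 against 1006 and 996 (0.11). PCDH12, known from endothelial cells, had 21 to 27 reads in every library. PCDH1 had 9 and 1 reads against 10 and 18, overlapping groups with a log2 fold change of 1.22 ± 0.59 SE that passed the threshold with the replicate number as a block (adjusted p = 0.039) and without shControl library 1 (3.40) or shKDM2B library 1 (1.58). PCDH11X and PCDH11Y are near-identical copies whose reads a counter could share or split, and their log2 fold changes were -0.08 and 0.13.

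Among the 17 cadherins named CDH, 5 rose, 1 fell and 11 were not called. Those that rose include CDH3 and CDH15, which reached the minimum for testing only in shKDM2B. Over all genes 13.3% rose and 6.79% fell. CDH2 (N-cadherin), the main classical cadherin of neural and mesenchymal cells, had 1915 and 1830 reads in shControl and 3364 and 3306 in shKDM2B. The groups did not overlap (log2 fold change 0.59 ± 0.04 SE, edgeR adjusted p = 1.6e-13). Its fold lay on the threshold of 1.5, and the call was lost with DESeq2 or RLE scaling and without shControl library 2 or shKDM2B library 1, at 0.58 in each. An unnamed antisense transcript partly inside the CDH2 span had 114 and 120 reads against 195 and 201. CDH13 (T-cadherin), which is held in the membrane by a lipid anchor and lacks a cytoplasmic tail, had 8679 and 8531 reads in shControl and 6266 and 6274 in shKDM2B. It fell 1.63-fold (log2 fold change -0.70 ± 0.03 SE, edgeR adjusted p = 1.1e-17), and with ribosomal scaling the value was -0.36 and not called. The antisense CDH13-AS2, partly inside the CDH13 span, had 2996 and 2805 reads against 2017 and 2093, and HSBP1, which crosses the end of that span, had 3307 and 3149 against 3728 and 3623. Their part in the CDH13 count was not tested.

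CDH18, a type II cadherin of the nervous system, had 73 and 67 reads in shControl and 412 and 421 in shKDM2B. Its groups were far apart, and it rose 5.01-fold (log2 fold change 2.32 ± 0.12 SE, edgeR adjusted p = 1.1e-15). CDH7, also type II, had 126 and 115 reads against 294 and 360 (1.19 ± 0.12 SE, edgeR adjusted p = 2.3e-09). CDH3 (P-cadherin), known from epithelia, had 5 and 8 reads against 47 and 68, a rise of 7.34-fold from few reads (adjusted p = 3.7e-08). CDH15 (M-cadherin), known from muscle, had 7 and 4 reads against 21 and 10, and its call was lost with DESeq2 (adjusted p = 0.24) and without shControl library 2 or shKDM2B library 1. CDH3 and CDH15 were tested only because they were higher in shKDM2B, so their rises are weak evidence. CDH1 (E-cadherin) was not analysed here. The epithelial markers in the table were also at low counts, with KRT8 at 68 and 77 against 145 and 150, KRT18 at 23 and 19 against 28 and 61, EPCAM at 22 and 21 against 40 and 45 and CLDN4 at 45 and 51 against 26 and 40. Of these 4, 3 were called higher and CLDN4 lower, beside 13.3% and 6.79% of all genes. Their part in the CDH3 result was not tested.

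CDH11 (OB-cadherin), a mesenchymal type II cadherin, had 384 and 351 reads in shControl and 327 and 362 in shKDM2B. Scaled for depth the groups did not overlap, but the change was small (log2 fold change -0.34 ± 0.09 SE, edgeR adjusted p = 0.0021) and not called. CDH4 (R-cadherin) had 856 and 796 reads against 1008 and 967 and CDH24 had 640 and 674 against 732 and 759, with overlapping groups and log2 fold changes of 0.01 and -0.07. CDH12 and CDH6 had log2 fold changes of 0.15 and 0.00. CDH23, the partner of PCDH15 in tip links, had 116 and 116 reads against 177 and 169 (0.33). CDH8, CDH10, CDH17, CDH20 and CDH26 had at most 26 reads in any library and no call. The 4 CDH12 pseudogene rows had 5 to 11 reads, and 3 of them had the same count in every library, so they are not separate measurements. Of the cadherin-related genes, CDHR3 had 397 and 372 reads against 461 and 530 (0.12), CDHR2 had 161 and 163 against 118 and 145 (-0.55, called lower without shKDM2B library 2) and CDHR5 had 10 to 18 reads.

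**Figure D4:**
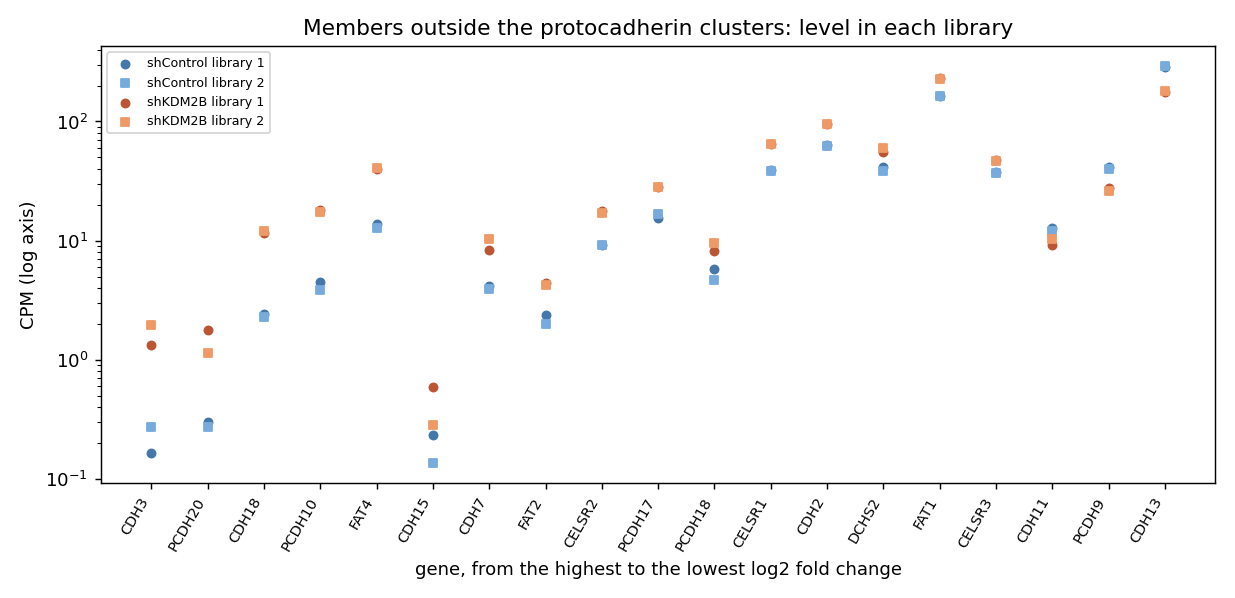
Level in CPM on a log axis in each library for the called members outside the arrays and for FAT1, DCHS2, CELSR3 and CDH11, ordered by log2 fold change. CDH3 and PCDH20 rise from under 1 CPM, and CDH13 and PCDH9, at the right, are the 2 called lower.

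Of the 9 giant cadherins 4 rose and 0 fell, beside 13.3% and 6.79% of all genes, with a median log2 fold change of 0.54. FAT4, which acts as a receptor for Dachsous, had 414 and 375 reads in shControl and 1414 and 1419 in shKDM2B. The groups were far apart, and it rose 3.02-fold (log2 fold change 1.60 ± 0.06 SE, edgeR adjusted p = 3.2e-19). FAT2 had 72 and 58 reads against 156 and 147 (0.97 ± 0.15 SE, edgeR adjusted p = 1.9e-06), and a transcript on the other strand inside its span had 4 and 6 against 21 and 22. FAT1, the most abundant member of the group, had 4917 and 4728 reads against 8237 and 7914, without overlap, and its 1.41-fold difference was below the threshold (0.50 ± 0.03 SE, edgeR adjusted p = 6.0e-14). FAT3 had 75 and 76 reads against 111 and 118 (0.35).

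The Dachsous ligands and the CELSR proteins, which carry multi-pass membrane domains and work with Frizzled and Vangl proteins in planar polarity, differed among themselves. CELSR1 had 1171 and 1122 reads in shControl and 2272 and 2258 in shKDM2B, and CELSR2 had 276 and 270 against 627 and 601. Neither gene's groups overlapped, and they rose 1.66-fold and 1.89-fold (edgeR adjusted p = 3.9e-15 and 8.0e-11). CELSR3 had 1134 and 1086 reads against 1687 and 1635 (log2 fold change 0.33) and was not called. DCHS2 had 1243 and 1120 reads against 1975 and 2100, a 1.45-fold difference that passed the threshold without shControl library 1 or shKDM2B library 1 (0.60 and 0.59). DCHS1 had 40 to 55 reads in every library (-0.32).

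Per kilobase of exon, and leaving out the nested rows, the highest members in shControl were CDH13 at 26.4 CPM per kb, FAT1 at 10.1, CDH2 at 7.38, CDH24 at 5.93 and CDH4 at 3.72. In shKDM2B the order of the first 4 was the same, with CDH13 at 16.2 CPM per kb, FAT1 at 14.2, CDH2 at 11.1 and CDH24 at 5.67. The distance between CDH13 and CDH2 in level was thus smaller in shKDM2B. The PCDHGA1 row, left out here because it spans the gamma array, had 25.55 CPM per kb in shControl and 39.42 in shKDM2B. It would thus rank below CDH13 in shControl and above it in shKDM2B. Its reads come from the whole array and its exon length from PCDHGA1 alone, so it cannot be compared directly. Counts over whole spans, the inferred way of counting, would include intron reads. These levels would then be per exon length only in name for genes with long introns such as CDH13.

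For each gene list here and below, the shares to set beside it are those of all genes, 13.3% higher and 6.79% lower. Of 14 catenins and actin linkers, 2 rose and 2 fell, with a median log2 fold change of -0.04. JUP (plakoglobin) had 12579 and 12471 reads in shControl and 9072 and 8690 in shKDM2B (-0.74), and CTNNAL1 was also lower (-0.65). ARVCF, a p120 family catenin, had 24 and 35 reads against 83 and 73 (1.15), and CTNNA3 had 59 and 61 against 103 and 118 (0.63). CTNNB1 (beta-catenin) had 8792 and 8490 reads against 8346 and 8130 (-0.32) and was not called. Of 7 other cadherin superfamily genes, 2 rose, DSG2 (0.60) and CLSTN3 (0.98), and of 5 desmosomal plaque genes 1 rose, EVPL (0.59).

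Of 14 transcription factors known to act on classical cadherin genes, 1 rose and 4 fell, with a median log2 fold change of -0.20. SNAI1 (Snail) had 12 and 17 reads in shControl and 181 and 192 in shKDM2B, without overlap (log2 fold change 3.43 ± 0.20 SE, edgeR adjusted p = 1.3e-14). Its relatives were lower, with SNAI2 (Slug) at 1824 and 1615 against 1256 and 1221 (-0.72) and SNAI3 at 44 and 35 against 18 and 17 (-1.41). ZEB2 had 4171 and 3937 reads against 2195 and 2112 (-1.16 ± 0.04 SE, edgeR adjusted p = 2.1e-20), and FOXC2 also fell (-0.93). ZEB1 had 1033 and 1060 reads against 1457 and 1473 (0.24) and was not called.

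Of 18 factors linked to clustered protocadherin promoters and chromatin loops, none was called, while 2 had an adjusted p of at most 0.05 on the higher side and 12 on the lower side, with folds below 1.5 and a median log2 fold change of -0.16. CTCF itself had 1382 and 1385 reads in shControl and 1676 and 1607 in shKDM2B (log2 fold change 0.00 ± 0.04 SE, edgeR adjusted p = 0.99). DNMT1, the maintenance DNA methyltransferase, had 5097 and 5131 reads against 4266 and 4296 (-0.50), and the cohesin subunit RAD21 had 6909 and 6619 against 6327 and 6342 (-0.34). Of 12 cytoplasmic partners of protocadherins, 2 rose, PTK2B (1.07) and CYFIP2 of the WAVE complex (0.68), with a median of -0.18.

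Of 13 planar polarity partners, 2 rose and 1 fell, with a median of -0.07. PTK7 had 590 and 573 reads in shControl and 1278 and 1311 in shKDM2B (0.91), FZD6 had 989 and 866 against 1980 and 1878 (0.81) and PRICKLE3 had 2278 and 2274 against 1412 and 1387 (-0.95). Of 10 proteases known to cut cadherins or to act in gamma-secretase, 2 fell, ADAM15 with 1704 and 1688 reads against 879 and 895 (-1.18) and APH1B with 964 and 900 against 569 and 555 (-0.98), while ADAM10 was at -0.01.

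Many members are best known from neurons, so the neuronal markers are set beside them. MAP2 had 323 and 350 reads in shControl and 1530 and 1558 in shKDM2B (log2 fold change 1.95), SNAP25 had 1018 and 929 against 616 and 703 (-0.81) and RBFOX3 did not pass the test (-0.35). TUBB3 had 0.57 and was not called. SYN1 was called lower, but TIMP1 lies within its span on the other strand, with 22116 and 20643 reads against 9637 and 9685, nearly the SYN1 counts of 21535 and 20660 against 9464 and 9535. Of 5 neuronal markers measured, 1 rose and 2 fell, and without SYN1 their summed level was 183 and 190 CPM in shControl and 270 and 277 CPM in shKDM2B. Most of that sum was TUBB3, at a mean of 142 CPM in shControl and 210 CPM in shKDM2B. Without TUBB3 as well, the sum was 45.1 and 44.4 CPM against 61.1 and 65.2 CPM. Of 3 glial markers 1 rose (GFAP) and of 3 mesenchymal markers 3 fell, of 2 endothelial markers VWF rose and TEK fell, the progenitor marker NES was not called, nor was CD68, the 1 leukocyte marker tested. The part of these markers in the protocadherin results was not tested.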

How the data were processed

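Poly(A) RNA from 4 U87MG libraries was sequenced as 50-base single-end reads with a kit that does not mark strand. The authors used CASAVA 1.8.2, TopHat2 2.0.11, Bowtie, SAMtools 0.1.19.0 and DESeq with hg19. Per the study's methods, reads were counted per transcript on Ensembl annotations with GenomicFeatures; the counting options are not given in the methods or labels. The raw count columns deposited by the authors were used as whole-number reads. Their size-factor scaled values, group means, fold changes, log2 fold changes and p-values were not used. Counts were filtered at a mean of 10 in either group, scaled by TMM and tested with edgeR 4.0.16 (quasi-likelihood, all 4 libraries, common biological variation 2.62%), with Benjamini-Hochberg adjustment over 21783 genes. The SE is the log2 fold change divided by the square root of the F statistic. CPM were computed with the TMM-scaled totals. The procedure was tested on simulated data. Gene positions and exon lengths came from GENCODE 44 lifted to GRCh37, and promoter sequences from RefSeq.

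The members and all gene lists were chosen with earlier results of these data known. Named were called members with at least 50 normalized reads in the higher group, CDH2, CDH11, CDH13 and FAT1, the 5 highest per kilobase, and up to 4 called genes of each list; nested alpha and gamma rows are given as ranges and by stretches, and other genes, including members under that level, CTNNB1, ZEB1, CTCF, DNMT1, RAD21 and ADAM10, were picked after their values were seen. Alternatives were DESeq2 1.42.0, RLE scaling, centering on 79 ribosomal protein genes, no filter, a mean of 50, other thresholds, a replicate block, each library left out, removal of genes sharing at least 50% of exonic bases, a pseudocount of 1 CPM and, chosen after seeing the data, start-to-start counts.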

Additional observations from a re-analysis of the deposited data

How the results depend on the processing

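With 2 libraries a group, direction was kept by every called member under every alternative fitted. Centering on ribosomal protein genes gave medians of 1.18 (clustered), 0.59 (other members) and 0.36 (all genes), 21 other members higher and 0 lower, and 6225 genes higher and 468 lower. A fold of 2 left 14 clustered members and 7 others higher and 0 others lower, of 1574 higher and 458 lower genes. Without a fold threshold 4 other members were lower, and 6188 genes were higher and 6417 lower. Bonferroni adjustment left 1568 genes higher. A minimum mean of 50 left 1 other member lower with a median of 0.36. The clustered median was 0.62 without genes sharing at least 50% of exonic bases, 0.62 with the pseudocount and 0.94 with start-to-start counts; that of other members was 0.13 with the pseudocount, and that of all genes was 0.02 without a filter. With 1 library left out, which assumes that the lone library varies like the other group, 38 to 50 clustered and 11 to 15 other members were higher, 1 to 3 other members were lower, and the median of all genes was 0.01 to 0.02. The replicate numbers are not said to pair libraries (correlation of deviations 0.176 over 13789 genes): with a replicate block 47 clustered and 14 other members were higher and 2 lower, of 2927 genes higher and 1482 lower. DESeq2 called 45 clustered and 11 other members higher and 2 lower. PCDHA14, CDH15 and PCDHB19P, with at most 36 reads in any library, lost their calls with DESeq2, as did CDH2 at the fold threshold; the cause was not tested.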
